A study of Mus musculus with 2 samples.

Results

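The cells described here are the Cd209a conventional type 2 dendritic cells (cDC2) from mouse omentum, an abdominal fat tissue in which immune cells gather in clusters known as milky spots. A cell was counted as a Cd209a cDC2 when it held H2-Aa, held at least 2 of the 5 genes Cd209a, Mgl2, Clec10a, Flt3 and Zbtb46, held no UMI of Xcr1, Clec9a, Siglech, Fscn1, Cd79a or Cd3e, and held fewer than 2 of C1qa, C1qb and C1qc. This rule found 179 cells of 14414, of which 160 were in the WT library and 19 in the Postn-DTR library. A UMI, or unique molecular identifier, marks 1 captured transcript. Both libraries were made from omenta of mice on a C57BL/6 background, taken on day 5 after diphtheria toxin (DT) had been injected, so the controls received DT as well. The Postn-DTR mice were heterozygous for a DT receptor placed at the Postn locus, and DT is directed at any cell that expresses Postn, with no further restriction to a tissue. Each library pooled several mice, and with 1 library for each group no test between groups, p-value or replicate error could be given. All intervals below are 95% intervals that cover counting error only.

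Conventional dendritic cells arise from Flt3-dependent precursors and are defined together by the transcription factor Zbtb46. The cDC2 branch takes up antigen, presents it on MHC class II to CD4 T cells, and carries the C-type lectins Cd209a, Clec10a and Mgl2 on part of its cells. In tissues it shares many genes with monocytes, including Ccr2 and Cd14, and cells of both lineages can be hard to separate from transcripts alone. Promoter sequences are printed with the mitotic genes, of which the WT cells held many UMIs and the Postn-DTR cells few or none.

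Marker genes outside the rule did not back the label for every cell of either library, and they went both ways between the libraries. Several genes that the rule did not use and that mark dendritic cells or cDC2 were found often in the WT cells: Sirpa, a surface receptor of cDC2, had a UMI in 144 of 160 cells, Itgam in 111, Itgax in 105 and Irf4 in 56, and in the Postn-DTR library these genes had a UMI in 13, 17, 5 and 5 of 19 cells. Itgam was thus found in a larger share of the Postn-DTR cells, and Sirpa, Itgax and Irf4 in a smaller share. These shares were not matched for depth, with a median of 11321.5 UMIs in a WT cell and 7953 in a Postn-DTR cell. Ccr2 and Cd14, which cDC2 share with monocytes, were detected in 16 and 11 of the 19 Postn-DTR cells. In the 160 WT cells they were detected in 113 and 36. The rule's own genes, given in the next paragraph, chose the cells and so cannot back the label. Whether the Postn-DTR cells were cDC2 or monocytes was not tested. Cd74, the invariant chain of MHC class II, was present in every cell of both libraries. In the WT cells its level had a lowest value of 43.5, a median of 391 and a highest value of 773 UMIs per 10000, and in the Postn-DTR cells these values were 17.4, 425 and 667. The tail of low values was the part of the gate that looked least like dendritic cells: 6 WT cells and 4 Postn-DTR cells held fewer than 100 Cd74 UMIs per 10000. Of the 4 Postn-DTR cells, 3 held 482, 281 and 115 UMIs of Lyz2, a lysozyme gene of monocytes and macrophages, with 26, 55 and 52 UMIs of Cd74 and none of Cd209a. In addition, 3 WT cells also passed a gate for neutrophils, and 1 WT cell held 1102 of the 1727 S100a8 UMIs of all WT cDC2. Leaving out the low-Cd74 cells and the neutrophil gate removed 7 WT cells and 4 Postn-DTR cells and left 153 and 15. This set was chosen after the values were seen and is called the stricter set below. Its values are given for part of the results, and a result without one can differ in it.

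The genes of the rule are given as a description, since they chose the cells. Cd209a (ENSMUSG00000031494, chromosome 8, 3743397 to 3748984 in GRCm38), a lectin receptor for mannose and fucose, had a UMI in 128 of 160 WT cells and in 15 of 19 Postn-DTR cells, with a mean of 8.89 and 5.73 UMIs per 10000. Flt3, the receptor for the growth factor of dendritic cells, was found in 112 and 11 cells, and Clec10a, a galactose-type lectin, in 100 and 13. Mgl2, its neighbour on chromosome 11, was found in 44 WT cells at a mean of 1.29 and in 8 Postn-DTR cells at a mean of 6.26. Zbtb46 was found in 70 WT cells and in 2 Postn-DTR cells. Clec10a and Mgl2 are close copies of each other, and reads that match both could have been split between them. At the edge of the rule, 64 WT and 10 Postn-DTR cells held exactly 2 of the 5 genes, whereas 60 and 21 cells that met every other condition held exactly 1 and stayed outside. The mean H2-Aa level just inside was 110.1 (WT) and 120 (Postn-DTR) UMIs per 10000, and just outside it was 66.7 and 48.0.

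The genes most particular to the cells relative to all others of the same library, again as a description, included Tnfsf9, Tnip3, Clec4b1, Pid1, Ms4a6c, Skint3, Krt80, Hfe, Sowahc, H2-DMb1, Clec4a1 and Pmaip1. Tnfsf9, the ligand of the T cell receptor 4-1BB, had a mean of 4.32 UMIs per 10000 in the WT cDC2 against 0.109 in the other WT cells, and 9.09 against 0.0807 in the Postn-DTR library. Clec4b1, a C-type lectin, had 1.74 against 0.0541 and 2.73 against 0.0186. Ms4a6c, a membrane gene of myeloid cells, had 6.09 against 0.567 and 6.48 against 0.530. All 3 were chosen for this ratio, so their higher level in cDC2 than in the other cells was fixed in advance. Their levels in the gates most like cDC2 are not given here. Postn, the gene that carries the DT receptor, gave 4 UMIs in 3 WT cDC2 and none in Postn-DTR cDC2, which is too few to compare.

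Whole-library features bear on every comparison. The WT library held 8680 cells after the limits of 200 to 7500 genes and 80175455 UMIs, and the Postn-DTR library held 5734 cells and 81027339 UMIs. The gates for plasma cells and neutrophils took 6.88% and 3.62% of the WT cells but 38.6% and 17.2% of the Postn-DTR cells, which lowers the share of every other gate. Within cDC2 the depth ran the other way, with a median of 11321.5 UMIs in a WT cell and 7953 in a Postn-DTR cell, and 1977393 against 162028 UMIs in all. The libraries shared 65 barcode sequences (1.13% of the Postn-DTR barcodes).

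Cd209a cDC2 made up 1.84% of the WT cells (160 of 8680, exact binomial interval 1.57% to 2.15%) and 0.331% of the Postn-DTR cells (19 of 5734, 0.20% to 0.517%). The ratio of the shares was 0.180 (approximate Katz interval 0.112 to 0.289). Among cells with a UMI of Ptprc, the leukocyte gene encoding CD45, the ratio was 0.193 (0.117 to 0.318). When cells of the plasma cell and neutrophil gates were taken out of this denominator, it was 0.400 (0.243 to 0.658), from 154 of 7107 and 17 of 1962 cells. The size of the reduction therefore depended on what the cells were counted against, while all these intervals stayed below 1. Shares give no number of cells in a mouse, and fewer cDC2 and more of other cells cannot be told apart.

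**Figure D1:**
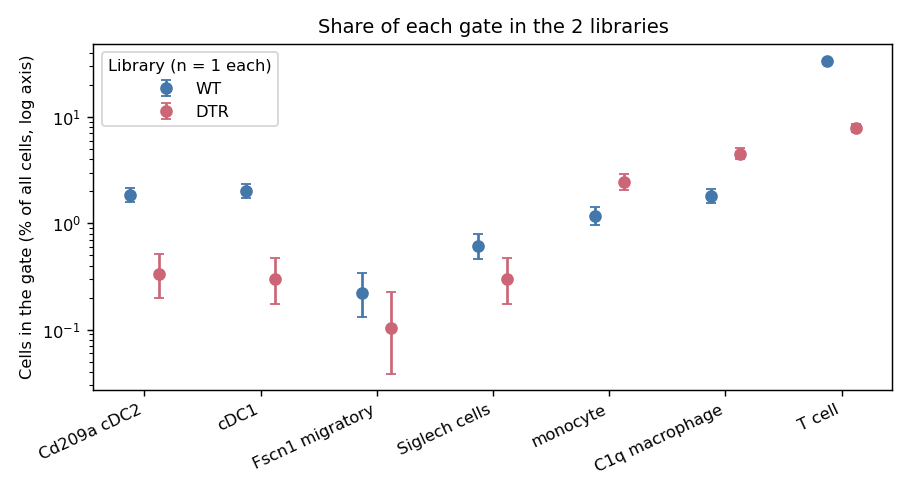
Share of 7 gates among all cells of the WT and Postn-DTR libraries (log axis, percent). Points are shares and bars are exact 95% binomial intervals for counting error only; Cd209a cDC2 lie at 1.84% and 0.331%, cDC1 lie close by, and monocytes and C1q macrophages have a higher share in Postn-DTR.

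Against other dendritic cells the share of cDC2 did not differ detectably at this number of cells. Of all cells in the gates for cDC2, cDC1, Fscn1 migratory and Siglech cells, cDC2 were 39.2% in WT (160 of 408, 34.4% to 44.1%) and 32.8% in Postn-DTR (19 of 58, 21% to 46.3%), a ratio of 0.835 (0.567 to 1.23). The cDC1 gate, which requires the cross-presenting cell markers that the cDC2 rule bars, gave 176 and 17 cells and a ratio of shares among all cells of 0.146 (0.0890 to 0.240). Monocytes had a ratio of 2.09 (1.63 to 2.69) and C1q macrophages one of 2.49 (2.05 to 3.02). In the monocyte gate 5 of 102 WT and 53 of 141 Postn-DTR cells also passed the neutrophil gate, so its make-up differed. The Siglech gate, for plasmacytoid cells, gave 53 and 17 cells and a ratio of 0.486 (0.281 to 0.838) among all cells, and within the dendritic cell gates it held 53 of 408 and 17 of 58 cells (29.3%), a ratio of 2.26 (1.41 to 3.62). The intervals of the cDC2 and cDC1 ratios among all cells overlapped each other, and the upper ends of both lay below the lower ends of those of monocytes and macrophages. These intervals cover counting error only, with 1 library a group.

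Inside the cDC2, genes of the cell cycle were lower in Postn-DTR. Of 23 cell cycle genes tested, none was at least 2-fold higher and 22 were at least 2-fold lower in the Postn-DTR cells, with a median log2 ratio of -2.88. Over all 6591 genes with at least 30 UMIs, 4.22% were at least 2-fold higher and 20.8% were at least 2-fold lower, and the median was -0.30. Among the 3003 genes with at least 100 UMIs these shares were 3.5% and 14.8%. Counts in every list below are to be read against the 4.22% and 20.8%. Of the 6591 genes 344 had no UMI in Postn-DTR and so reached 30 UMIs through the WT cells alone. A ratio here is that of the mean level over cells, Postn-DTR over WT, with 0.05 UMIs per 10000 added to both means. In the Postn-DTR cells 13 of the 23 genes gave no UMI at all. The limit that 3 UMIs over the Postn-DTR cDC2 allow is a level of 0.185 UMIs per 10000. With the genes at 0 set at this level, the list had a median of -2.04 and 17 genes at least 2-fold lower (73.9%), against 16.1% of all genes so treated and a median of -0.23. Without the cells with 3 or more cycle genes, 7 genes of the list were tested, of which 3 were lower, with a median of -0.62.

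Ube2c, an enzyme that marks mitotic regulators for degradation, gave 613 UMIs in 42 of 160 WT cells and none in 19 Postn-DTR cells. Its WT mean was 1.99, which makes Postn-DTR at least 10.7-fold lower (mean level against the limit of 3 UMIs over the library). This bound, like those of the other genes at 0 below, counts UMIs as independent. UMIs of a gene gather in part of the cells, so with 19 Postn-DTR cells the bounds can overstate the fold. Top2a, a topoisomerase of dividing cells, gave 396 UMIs in 43 WT cells and none in Postn-DTR (WT mean 1.27, at least 6.88-fold lower). Pclaf, Birc5, Ccnb2 and Cenpf, genes of replication and mitosis, were likewise at 0 in Postn-DTR against 378, 339, 256 and 226 UMIs in WT. Pcna, a clamp for DNA polymerase that is also used in repair, was the exception among the 23, with a log2 ratio of -0.24, or 0.03 in the stricter set.

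A cell was called cycling when it held at least 3 of Mki67, Top2a, Birc5, Ube2c, Cdk1, Ccnb2, Ccna2, Cenpf and Pclaf. By this count 47 of 160 WT cells were cycling (29.4%, 22.4% to 37.1%), and 0 of 19 Postn-DTR cells, which allows a share of up to 17.6%. In the stricter set the numbers were 43 of 153 (28.1%, 21.1% to 35.9%) and 0 of 15, which allows up to 21.8%, so these intervals overlapped. Cycling WT cells were deeper, with a median of 15065 UMIs against 10507 in the other WT cells. Among cDC1, 55 of 176 WT cells and 1 of 17 Postn-DTR cells were cycling, and among monocytes 30 of 102 and 78 of 141. For cDC1 the Postn-DTR interval (0.149% to 28.7%) overlapped the WT one (24.5% to 38.7%), so a lower cycling share was not detectable there. For cDC2 the intervals lay apart over all cells but overlapped in the stricter set. The cycling share was high in the Postn-DTR monocyte gate (55.3%, 46.7% to 63.7%). That gate shared 53 of its 141 cells with the neutrophil gate, against 5 of 102 in WT. The part these cells had in its cycling share was not tested.

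The promoters of 3 mitotic genes are shown because these genes, found in 40 to 43 WT cells each, gave no UMI in Postn-DTR cDC2. Each runs from 250 bases before to 50 after the start of transcription, 5′ to 3′ on the strand of the gene, from RefSeq on GRCm38.p6. Capitals mark 2 motifs known from cell cycle promoters, searched on both strands: the CCAAT box (CCAAT or ATTGG) and the cell cycle homology region (TTTGAA or TTCAAA).
Ube2c, chr2:164769679-164769978, plus strand: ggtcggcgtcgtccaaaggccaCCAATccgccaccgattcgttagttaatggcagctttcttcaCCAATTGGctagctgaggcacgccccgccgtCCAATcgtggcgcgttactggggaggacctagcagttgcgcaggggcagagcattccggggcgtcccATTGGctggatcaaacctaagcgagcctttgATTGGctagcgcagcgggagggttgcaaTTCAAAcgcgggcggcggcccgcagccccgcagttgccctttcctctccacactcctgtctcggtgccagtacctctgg
Top2a, chr11:99024140-99024439, minus strand: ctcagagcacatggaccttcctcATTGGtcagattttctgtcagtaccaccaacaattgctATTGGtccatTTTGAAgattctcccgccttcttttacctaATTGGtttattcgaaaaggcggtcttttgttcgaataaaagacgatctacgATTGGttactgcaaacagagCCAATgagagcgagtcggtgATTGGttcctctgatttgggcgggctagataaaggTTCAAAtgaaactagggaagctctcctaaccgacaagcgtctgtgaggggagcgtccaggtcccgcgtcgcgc
Ccnb2, chr9:70421505-70421804, minus strand: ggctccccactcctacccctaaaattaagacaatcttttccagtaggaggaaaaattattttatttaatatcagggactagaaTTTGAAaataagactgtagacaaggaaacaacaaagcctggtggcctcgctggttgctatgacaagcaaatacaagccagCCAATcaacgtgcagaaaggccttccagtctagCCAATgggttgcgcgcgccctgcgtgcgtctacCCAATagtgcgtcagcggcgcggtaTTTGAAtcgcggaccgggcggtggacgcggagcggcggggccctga
The CCAAT box occurred 6 times in the Ube2c window, 6 times in that of Top2a and 3 times in that of Ccnb2, with overlapping matches on the 2 strands counted separately, and the homology region occurred 1, 2 and 2 times. Promoters were found for 21 of the 23 tested cell cycle genes, and 16 of them held a CCAAT box (76.2%) against 37.4% of all 32851 promoters of this length. Both motifs were found in 8 of the 21 (38.1%) against 6.95% of all promoters. A match describes letters in a window and is not a measured binding site.

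Outside the cell cycle, the 12 genes with the highest ratio, by a fixed rule on size, abundance and spread over cells, were Cd14, Wfdc17, Il4ra, Trf, Pltp, Mt1, Fgfr1, Orai1, Il13ra1, Pik3r5, Selenop and Slamf9. Cd14, a co-receptor for lipopolysaccharide, had a mean of 1.01 UMIs per 10000 in WT (lowest 0, median 0, highest 21.5) and 6.03 in Postn-DTR (lowest 0, median 5.41, highest 20.3), a log2 ratio of 2.52. It had a UMI in 36 of 160 and 11 of 19 cells, so more cells held it while its highest values were alike. Wfdc17, a secreted protein of activated macrophages (chromosome 11, 83703991 to 83706268), had a mean of 4.34 (lowest 0, median 2.67, highest 50.0) and 18.9 (lowest 3.92, median 16.0, highest 39.0), a log2 ratio of 2.11. Every one of the 19 Postn-DTR cells held Wfdc17, against 118 of 160 WT cells.

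Pltp, a phospholipid transfer protein, had a log2 ratio of 1.57, from means of 2.99 in WT and 8.98 in Postn-DTR, with a UMI in 65 of 160 and 14 of 19 cells. Mt1, a metallothionein, had 3.83 and 11 (log2 ratio 1.51), and Trf, which encodes transferrin, had 1.62 and 4.95 (1.58). Il4ra and Il13ra1, both chains of the type 2 receptor for IL-4 and IL-13, had log2 ratios of 1.66 and 1.34, with means of 0.497 and 1.67 for Il4ra and 0.473 and 1.28 for Il13ra1. On summed UMIs the exact conditional interval of the log2 ratio was 0.83 to 2.19 for Il4ra and 0.82 to 2.25 for Il13ra1. In cells thinned to 3000 UMIs the log2 ratio was 0.97 for Il4ra, 2.30 for Il13ra1 and 0.40 for Slamf9, so Il4ra and Slamf9 were then within 2-fold, and Slamf9 had 0.87 in cells with 3 or more markers of the rule. Fgfr1, a growth factor receptor, and Orai1, a calcium channel, both had a log2 ratio of 1.43. Of the 12 genes, 11 remained at least 2-fold higher in the stricter set, and Selenop, a selenium carrier of macrophages, was at 0.95 there.

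**Figure D2:**
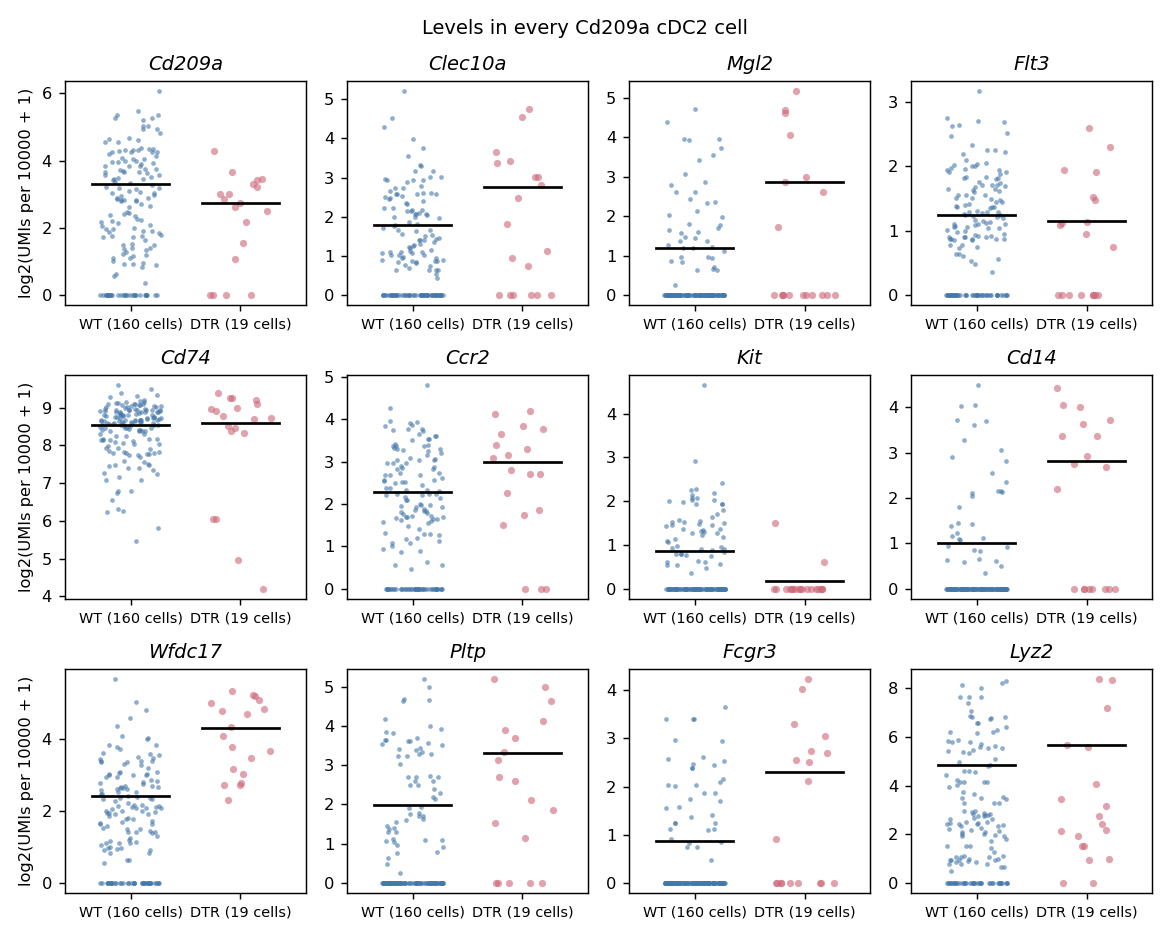
Level of 12 genes in every Cd209a cDC2 cell, as log2 of UMIs per 10000 plus 1, for 160 WT and 19 Postn-DTR cells. Each point is a cell and each line is the mean level on the same scale; the Cd74 panel shows 4 low Postn-DTR cells, and Wfdc17 is above 0 in all 19.

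To compare cells at one depth, each cell was thinned to 3000 UMIs, which left out 6 WT cells and 1 Postn-DTR cell. The share of WT cells with Cd14 was then 11.7% (18 of 154, 7.08% to 17.8%). That of Postn-DTR cells was 55.6% (10 of 18, 30.8% to 78.5%). T cells, which should lack Cd14, had 1.02% and 1.93% at the same depth, with a median of 4776 and 4575 UMIs a cell before thinning. Wfdc17 was found in 54.5% and 88.9% of the thinned cDC2, against 1.06% and 3.03% of the T cells. Unthinned shares were 22.5% and 57.9% for Cd14 and 73.8% and 100% for Wfdc17. Cd14 and Wfdc17 were also higher in the other cells of the Postn-DTR library, with means of 0.577 and 3.31 for Cd14 and 1.23 and 11.6 for Wfdc17, and the part of RNA from outside the cell in the cDC2 values was not tested.

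Several genes of the Fc receptor list were higher in Postn-DTR. Of 7 genes of the list tested, 5 were at least 2-fold higher in Postn-DTR cDC2 and none lower (4.22% and 20.8% of all genes). The median log2 ratio was 1.25 against -0.30 over all genes. One of the 5, Cd300lf (1.94), is on the list but is not itself a receptor for antibody. Fcgr3, a low-affinity activating receptor for IgG, had a mean of 0.818 and 3.91 (log2 ratio 2.19) and a UMI in 38 of 160 and 10 of 19 cells. Fcgr4, an activating receptor that binds IgG2, had 0.0698 and 1.01 (3.14), in 7 and 9 cells. Thinned to 3000 UMIs, Fcgr3 was held by 14.9% of the WT and 44.4% of the Postn-DTR cDC2 and by 1.45% and 1.65% of the T cells, and Fcgr4 by 0.649% (1 of 154) and 38.9% (7 of 18) of the cDC2 and 0.0392% and 0.551% of the T cells. The summed level of the Fc receptor genes in the other cells of each library was 9.88 in WT and 12.7 in Postn-DTR, with means of 0.334 and 1.16 for Fcgr3 and 0.0633 and 0.333 for Fcgr4. What part these cells had in the values of cDC2 was not tested. Fcgr2b, the inhibitory receptor, had 2.14 and 4.76 (1.14), and Fcgrt, the neonatal receptor that recycles IgG, had 0.850 and 2.09 (1.25). Fcer1g, the signalling chain shared by the activating receptors, had 17.0 and 27.3 (0.68). Fcgr2b, Fcgr3 and Fcgr4 lie within a short stretch of chromosome 1 and resemble each other, so reads could have been assigned to the wrong member. In the stricter set 4 of 6 tested Fc receptor genes were at least 2-fold higher, with a median of 1.25, and among cells with a Ccr2 UMI 3 of 7, with a median of 0.98.

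The values of the monocyte list rested on a few cells. Over all cDC2 10 of its 22 tested genes were at least 2-fold higher and 3 lower, with a median log2 ratio of 0.85 (all genes 4.22%, 20.8% and -0.30). In the stricter set 3 of 20 were higher and 5 lower, with a median of -0.29. Lyz2 went from a log2 ratio of 0.87 to -1.39, and Thbs1, a matrix protein, from 2.73 to -0.24. One Postn-DTR cell held 49 of the 51 Thbs1 UMIs. All 86 UMIs of Chil3, a chitinase-like secreted protein, came from 1 Postn-DTR cell. Cd14 was among the 3 genes still higher in the stricter set, at 2.53 against 2.52 over all cells. Of 8 macrophage genes 3 were higher over all cells and none in the stricter set, and Apoe, an apolipoprotein, went from 2.35 to -3.51.

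**Figure D3:**
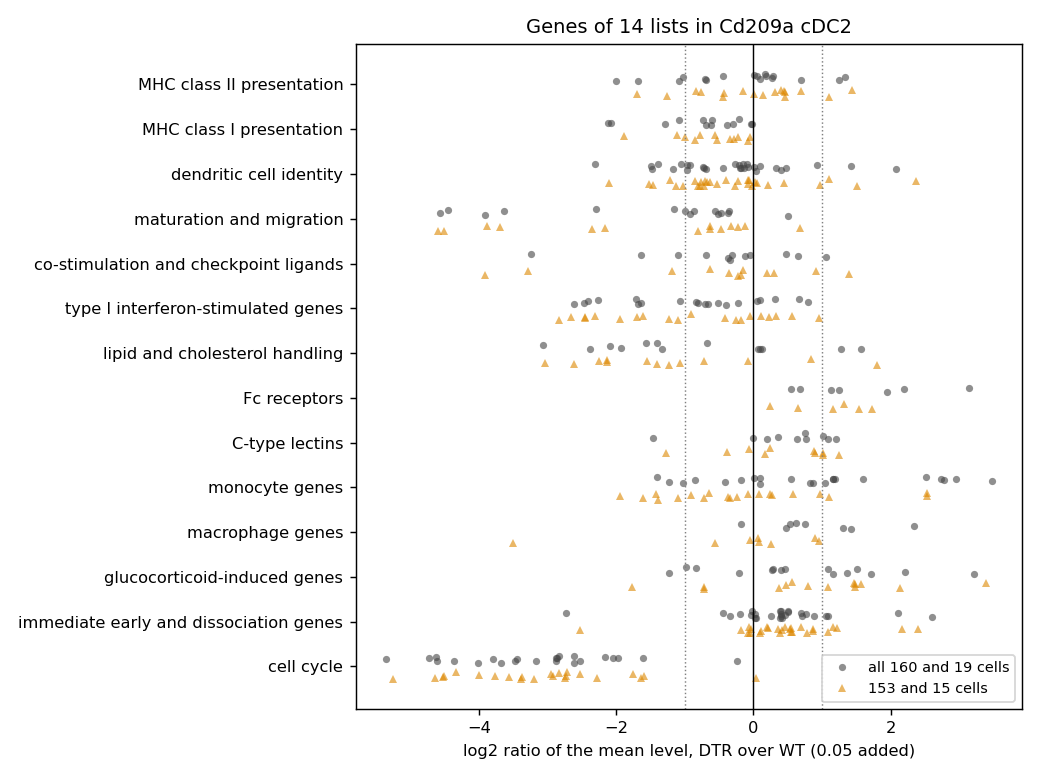
Log2 ratio of the mean level (Postn-DTR over WT, 0.05 UMIs per 10000 added) for each tested gene of 14 lists in Cd209a cDC2. Circles use all 160 and 19 cells, triangles the stricter set of 153 and 15, and dotted lines mark 2-fold; monocyte and macrophage genes shift left in the stricter set, whereas Fc receptor genes stay above 0.

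Genes of MHC class II presentation lay around the same level in both libraries. Of 17 MHC class II pathway genes 2 were at least 2-fold higher and 4 lower, with a median log2 ratio of 0.06. Over all genes 4.22% were higher and 20.8% lower, with a median of -0.30. Cd74 had a mean of 370 and 385 UMIs per 10000 (log2 ratio 0.06), and H2-Eb1, a beta chain of class II, had 110 and 125 (0.19). Among the genes that load peptide, H2-DMb2 was lower, with 3.30 and 0.782 (-2.01), whereas its close copy H2-DMb1 had 7.90 and 9.66 (0.29). Reads could have been split between these copies. Lgmn, a lysosomal protease that trims antigen, was higher with 0.960 and 2.50 (1.34), as was Marchf1, a ligase that removes class II from the surface, with 0.488 and 1.23 (1.25). Ciita, the activator of class II transcription, had a log2 ratio of -0.71. All 13 MHC class I genes had a negative log2 ratio and 4 were at least 2-fold lower, with a median of -0.62, or 3 and -0.60 with the gene at 0 set at its limit. Of all 6591 genes 4344 had a negative log2 ratio. With genes at 0 at their limits 16.1% of all genes were at least 2-fold lower, with a median of -0.23. H2-K1, a classical class I heavy chain, had 17.7 and 11.5 (-0.62), and Psmb10, a subunit of the immunoproteasome, had 1.75 and 0.687 (-1.29).

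Genes that mark dendritic cell identity outside the rule had 2 of 30 at least 2-fold higher, 6 lower and a median of -0.20. This is near the values of all genes (4.22%, 20.8% and -0.30). Itgax, which encodes CD11c, had a mean of 1.87 in WT (lowest 0, median 1.49, highest 9.86) and 0.631 in Postn-DTR (lowest 0, median 0, highest 3.8), a log2 ratio of -1.49. After thinning, 40.9% of the WT cells (33.1% to 49.1%) and 22.2% of the Postn-DTR cells (6.41% to 47.6%) held Itgax, so the shares overlapped within their intervals, while T cells had 0.981% and 0%. Kit, the receptor for stem cell factor, had 0.813 and 0.125 (-2.30). Dpp4, a surface peptidase, had 1.14 and 0.375 (-1.48), Relb, a subunit of NF-kappaB needed by cDC2, had a log2 ratio of -1.40, and Runx3, a transcription factor, one of -1.18. Id2, a regulator of dendritic cell development, was higher with 0.616 and 2.77 (2.08). Sirpa, at -0.27, and Csf2ra, a receptor chain for GM-CSF, at -0.08, lay near 0. In the stricter set the list had 3 genes higher and 6 lower of 30, with a median of -0.46.

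Of 15 genes of maturation and migration none was at least 2-fold higher and 6 were lower (20.8% of all genes were), with a median of -0.92 against -0.30 over all genes. The median was -0.32 in cells with 3 or more markers of the rule, where that of all genes was -0.32 as well, and -0.54 on summed UMIs, against -0.21. Ccr7, the receptor that guides dendritic cells to lymphatics, gave 232 UMIs in 31 of 160 WT cells and none in Postn-DTR (WT mean 1.04, at least 5.61-fold lower). The share of cells was 19.4% (13.6% to 26.4%) against 0 of 19, which allows up to 17.6%. Thinned to 3000 UMIs it was 10.4% (6.06% to 16.3%) against 0 of 18, so the difference in share was not detectable at this depth, and T cells, which use Ccr7 themselves, had 27.0% and 20.4%. The gate bars Fscn1, so that fully mature migratory cells were left out in both libraries. Fabp5, a fatty acid binding protein, gave 248 UMIs in 65 WT cells and none in Postn-DTR (at least 6.16-fold lower), and Il4i1, an amino acid oxidase, gave 119 and none (at least 3.07-fold lower). Ltb, a chain of lymphotoxin counted with the cytokines, had a mean of 1.68 in WT and 0.0969 in Postn-DTR (-3.55), with 307 UMIs in 66 cells against 2 UMIs in 1 cell (log2 ratio of summed UMIs -3.33, counting interval -6.70 to -1.79). Ccl5, a chemokine, gave 126 UMIs in WT and none in Postn-DTR (at least 3.78-fold lower). With its 5 genes at 0 set at their limits the maturation list had a median of -0.86 and 5 genes at least 2-fold lower (33.3%), against 16.1% of all genes.

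Of 20 genes induced by type I interferon, none was at least 2-fold higher and 8 were lower, again against 20.8% of all genes, with a median of -0.75 against -0.30. The median moved to -0.12 in cells with 3 or more markers of the rule, where all genes had -0.32, and to -0.31 on summed UMIs, where all genes had -0.21. Ifi27l2a, an abundant interferon-induced gene, had a mean of 8.16 and 2.47 (-1.71) and a UMI in 115 of 160 and 13 of 19 cells. Bst2, the tetherin gene, had 2.20 and 3.52 (0.66). Oas3, Ifit3 and Rsad2, antiviral effectors, were at 0 in Postn-DTR but gave only 41, 38 and 33 UMIs in WT. With the 4 genes at 0 set at their limits, 4 of 20 were at least 2-fold lower (20%, against 16.1% of all genes so treated), and the median was -0.39 against -0.23.

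Of 13 genes of lipid handling 7 were at least 2-fold lower and 2 higher, with a median of -1.33 (all genes 20.8%, 4.22% and -0.30). With the 2 genes at 0 set at their limits 5 were lower and the median was -0.67, against 16.1% and -0.23. Srebf2, the transcription factor of the pathway, had 1.09 and 0.170 (-2.38) and was found in 101 of 160 and 3 of 19 cells, with 3 UMIs in Postn-DTR (log2 ratio of summed UMIs -2.31, counting interval -4.82 to -0.97). Hmgcs1, an early enzyme of the pathway, gave 82 UMIs in WT and none in Postn-DTR (at least 2-fold lower). Fdps, another enzyme of the pathway that is not in the list but is among the 12 lowest genes, gave 177 UMIs in 74 WT cells and none in Postn-DTR (at least 4.74-fold lower). Pltp and Plin2, a coat protein of lipid droplets, were the 2 higher genes, at 1.57 and 1.27. In the stricter set 9 of 13 were lower and 1 higher, with a median of -1.40, and Plin2 was at 0.84.

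Of the remaining lowest genes, Pak1, a kinase of the cytoskeleton, gave 169 UMIs spread over 74 WT cells and none in Postn-DTR (at least 4.42-fold lower). Pglyrp1, an antibacterial protein of neutrophil granules, gave 291 UMIs in 41 WT cells and none in Postn-DTR (at least 5.82-fold lower). Hist1h2ae, a histone, gave 213 UMIs and none (at least 3.72-fold lower). Cd180, from the list of pattern receptors, gave 126 UMIs in 78 WT cells and none (at least 3.66-fold lower).

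Glucocorticoid-induced genes were higher in part, with 7 of 15 at least 2-fold higher (4.22% of all genes were), 1 lower (20.8% of all genes) and a median of 0.46. Fkbp5, a chaperone of the glucocorticoid receptor, had 0.126 and 1.58 (3.21), with a UMI in 20 of 160 and 13 of 19 cells, and Klf9, a transcription factor, had 0.143 and 0.846 (2.21). Per1, a clock gene, had a log2 ratio of -0.83. Fkbp5 also had a higher mean in the other cells of the Postn-DTR library, with 0.186 and 0.712. Of 27 immediate early and dissociation genes 4 were at least 2-fold higher and 1 lower, with a median of 0.40. Ier3, an early response gene, had 0.849 and 5.39 (2.6), and Egr3, a transcription factor, had 1.23 and 0.144 (-2.73). For Hspa1a, a heat shock protein, 1 Postn-DTR cell gave 24 of 29 UMIs. The part that cell handling had in these values was not tested.

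Secreted signals differed gene by gene. Il1b, an inflammatory cytokine, was found in 133 of 160 and 17 of 19 cells with a mean of 24.8 and 43.9 (0.82). Of 12 cytokines 1 was higher and 3 were lower, with a median of 0.03, where 4.22% of all genes were higher and 20.8% lower. In the stricter set 4 of 11 cytokines were lower and none higher, with a median of -0.39. Of 8 chemokine ligands 4 were at least 2-fold higher and none lower, with a median of 0.93, and in the stricter set 2 of 7 were higher. Ccl9 and Ccl6, chemokines of myeloid cells, had log2 ratios of 1.18 and 1.28, and Ccl6 was at 0.88 in the stricter set. For Cxcl2, a neutrophil chemokine, 1 Postn-DTR cell gave 85 of 116 UMIs. Of 6 chemokine receptors 2 were higher and 2 lower, Ccr2 had 3.90 and 6.97 (0.83), and Cx3cr1, the fractalkine receptor, had 0.799 and 0.356 (-1.06).

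Of 10 C-type lectins outside the rule 3 were higher and 1 lower, with a median of 0.69, and Clec4b1 had a log2 ratio of 0.63. Klrb1b, a lectin receptor of natural killer and other cells in the list of cDC2 subset genes, had 0.133 and 1.61 (3.18), with a UMI in 16 of 160 and 8 of 19 cells. The other 6 tested genes of that list lay within 2-fold. Of 12 co-stimulation and checkpoint genes 1 was higher and 3 were lower, with a median of -0.32, which is near the share of lower genes (20.8%) and the median (-0.30) of all genes. Cd86 had a log2 ratio of -0.69, Cd40 one of -1.10 and Tnfsf9 one of 1.07. Havcr2, which encodes the checkpoint receptor TIM-3, gave 76 UMIs in 45 WT cells and none in Postn-DTR (at least 2.27-fold lower). Of 13 toll-like and related receptors 1 (Cd14) was higher and 4 were lower, or 2 with the 3 genes at 0 set at their limits, against 20.8% and 16.1% of all genes. Of 7 retinoic acid genes 1, Aldh1a2, was lower, with 45 UMIs in WT and 1 in Postn-DTR. Of 8 interferon-gamma genes 1 was higher and 3 were lower, or 2 with the genes at 0 set at their limits, against the same shares of all genes.

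Of 17 thymosin and actin-binding genes 2 were lower and none higher, with a median of -0.27 (all genes 20.8%, 4.22% and -0.30). Tmsb10, a thymosin named in the study, had 52.6 and 24.3 (-1.11), and Tmsb4x had 176 and 143 (-0.30). The ribosomal protein gene Rps21 had 12.2 and 9.06 (-0.43), and Cd52, a small surface glycoprotein, had 19.7 and 16.2 (-0.28). Ly6d, a marker of B cell progenitors, gave 5 UMIs in WT and none in Postn-DTR. None of 81 ribosomal protein genes passed 2-fold, and their median was 0.18.

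Markers of other cell types moved with some of these results. Plasma cell markers were higher in Postn-DTR cDC2 in 5 of 6 tested genes, and their summed level over 12 genes was 5.19 in WT and 17.7 in Postn-DTR. Igkc, an antibody light chain, had a UMI in 27.5% of the WT cDC2 and 84.2% of the Postn-DTR cDC2. T cells, which do not make it, had 28.6% and 71.0%. Thinned to 3000 UMIs the shares were 11% and 55.6% in cDC2 and 18.4% and 50.7% in T cells, and the part that RNA from outside the cell had in them was not tested. Neutrophil markers were lower in all 9 tested genes, with summed levels of 16.9 and 1.07, and this rested on the cells left out of the stricter set, in which none of the 9 had 30 UMIs. T cell markers had summed levels of 0.301 and 0.0586 with no gene tested, stromal markers 1.05 and 0.201, and mast cell markers 0.917 and 0.125. Kit, also in the dendritic cell identity list, made up 0.813 and 0.125 of the mast cell sums and was their only tested gene. Of the cDC1 markers 1 of 4 tested genes was lower, Wdfy4, a gene needed for cross-presentation, with 1.53 and 0.230 (-2.50). Plasmacytoid markers had 1 of 4 lower, natural killer markers 1 of 2 lower, and B cell markers 2 of 3 higher. These 2, Ighm and Igkc, are also in the plasma cell list, and the other tested B cell gene, Cd79b, was at -0.45. Irf4, counted above with the cDC2 genes, is among the 5 higher plasma cell markers.

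The WT cells were not uniform, and Kit and Ccr2 divided them. These genes were chosen after the values were seen, and the division is a description. In WT 33 cells held Kit and no Ccr2, 86 held Ccr2 and no Kit, 27 held both and 14 held neither. The Kit cells without Ccr2 had means of 2.35 for Flt3, 7.28 for H2-DMb2, 4.35 for Ltb, 3.15 for Wdfy4 and 3.03 for Itgax, and held Ccr7 in 17 of 33 cells. The Ccr2 cells without Kit had 0.940, 1.41, 0.332, 0.945 and 1.33 for the same genes, and held Ccr7 in 7 of 86 cells. In turn the Ccr2 cells had 47.3 for Lyz2, 1.75 for Cd14, 1.47 for Fcgr3, 2.20 for Mgl2 and 4.16 for Pltp, where the Kit cells had 0.930, 0.0531, 0.127, 0.20 and 0.586. Cycling cells were found in both, 13 of 33 and 23 of 86. A further 14 WT cells held none of the 3 lectins of the rule and entered by Flt3 and Zbtb46 alone; 12 of them held Kit and none held Ccr2.

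Of the 19 Postn-DTR cells 15 held Ccr2 and no Kit (78.9%, 54.4% to 94.0%), against 53.8% in WT (45.7% to 61.7%). Kit without Ccr2 was found in 1 cell (5.26%, 0.133% to 26.0%), against 20.6% in WT (14.6% to 27.7%). Any Kit was found in 10.5% against 37.5% (1.30% to 33.1% and 30% to 45.5%). After thinning to 3000 UMIs it was found in 0 of 18 against 16.9%, a difference in share that was not detectable at this number of cells. Ccr2 was found after thinning in 88.9% of the Postn-DTR cells (65.3% to 98.6%) and 53.2% of the WT cells (45.0% to 61.3%). T cells, which use Ccr2 themselves in part, had 20.1% in Postn-DTR and 24.2% in WT.

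The comparison was repeated among cells with a Ccr2 UMI, 16 in Postn-DTR and 113 in WT, where 10 of the 12 highest genes were still at least 2-fold higher. The log2 ratio was 2.02 for Cd14, 1.78 for Wfdc17, 1.56 for Pltp, 1.33 for Mt1, 1.67 for Fcgr3 and 3.06 for Fcgr4. It was -1.29 for Itgax, -1.67 for H2-DMb2, -2.15 for Wdfy4 and -1.77 for Ltb. Of the 23 cell cycle genes 22 remained at least 2-fold lower, with a median of -3.03. Slamf9, a receptor of the CD2 family, went from 1.29 to 0.78, Selenop from 1.31 to 0.88 and Tnfsf9 from 1.07 to 0.78. Over all 5688 genes tested in these cells 203 were at least 2-fold higher and 1088 lower, with a median of -0.23.

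**Figure D4:**
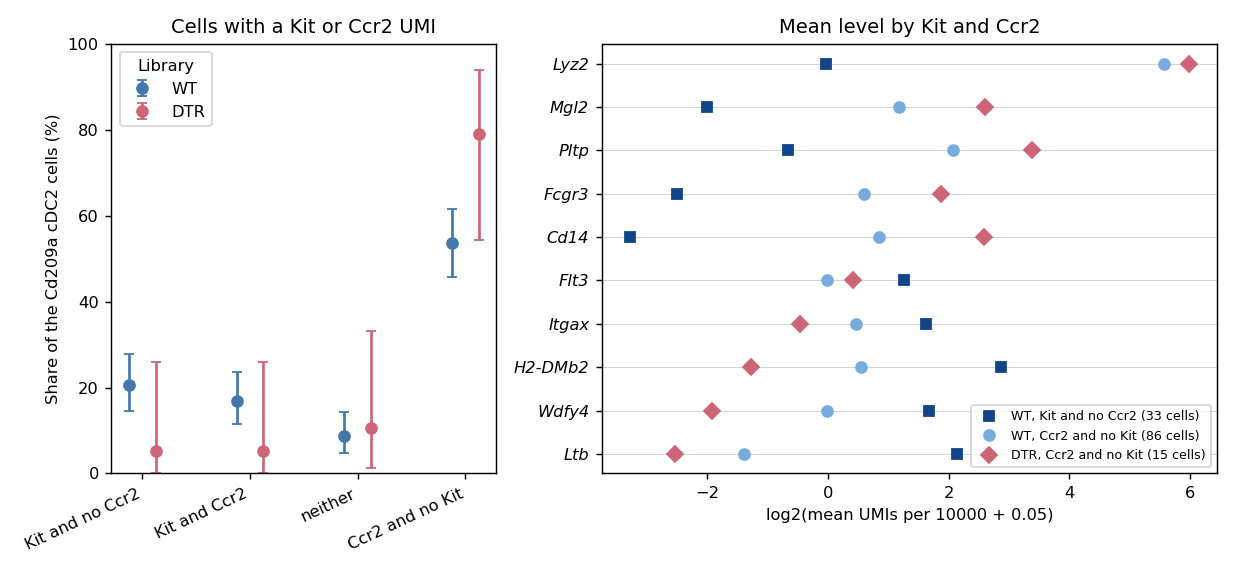
Left, share of the Cd209a cDC2 of each library that held a UMI of Kit, Ccr2, both or neither (percent, exact 95% binomial intervals for counting error only). Right, mean level of 10 genes on a log2 scale (UMIs per 10000, 0.05 added) in 33 WT cells with Kit alone, 86 WT cells with Ccr2 alone and 15 Postn-DTR cells with Ccr2 alone; for Cd14, Fcgr3, Pltp and Mgl2 the WT Ccr2 cells lie between the other groups.

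The same genes were read in cells of other gates to see where cDC2 stood apart, with no test of any difference between gates. Wfdc17 had positive log2 ratios in cDC1 (1.24), monocytes (0.77) and C1q macrophages (1.17), and Cd14 had 1.13, 0.47 and 0.79. Mt1 had 2.41 in cDC1 and 1.23 in C1q macrophages, and Fgfr1 had 2.42 and 1.27. Pltp did not follow: against 1.57 in cDC2 it had -1.96 in cDC1, -2.46 in monocytes and -0.49 in C1q macrophages. Trf had -0.40 in cDC1 and -0.70 in monocytes. Fcgr3 had 0.50 in monocytes and 0.51 in C1q macrophages against 2.19 in cDC2. The Fscn1 migratory gate held only 19 and 6 cells and gave too few UMIs for most of these genes. Values of the monocyte gate include the cells it shares with the neutrophil gate, which were more frequent in Postn-DTR.

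Among the lower genes, Kit had a log2 ratio of 0.35 in cDC1, where it gave 378 and 21 UMIs, against -2.30 in cDC2. Pak1 had 0.11 in cDC1 and Fabp5 had -2.81. Ube2c had -1.43 in cDC1, 0.48 in monocytes and -2.80 in C1q macrophages. Itgax was also negative in the other gates compared, with -0.78 in cDC1, -2.36 in monocytes and -1.20 in C1q macrophages.

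**Figure D5:**
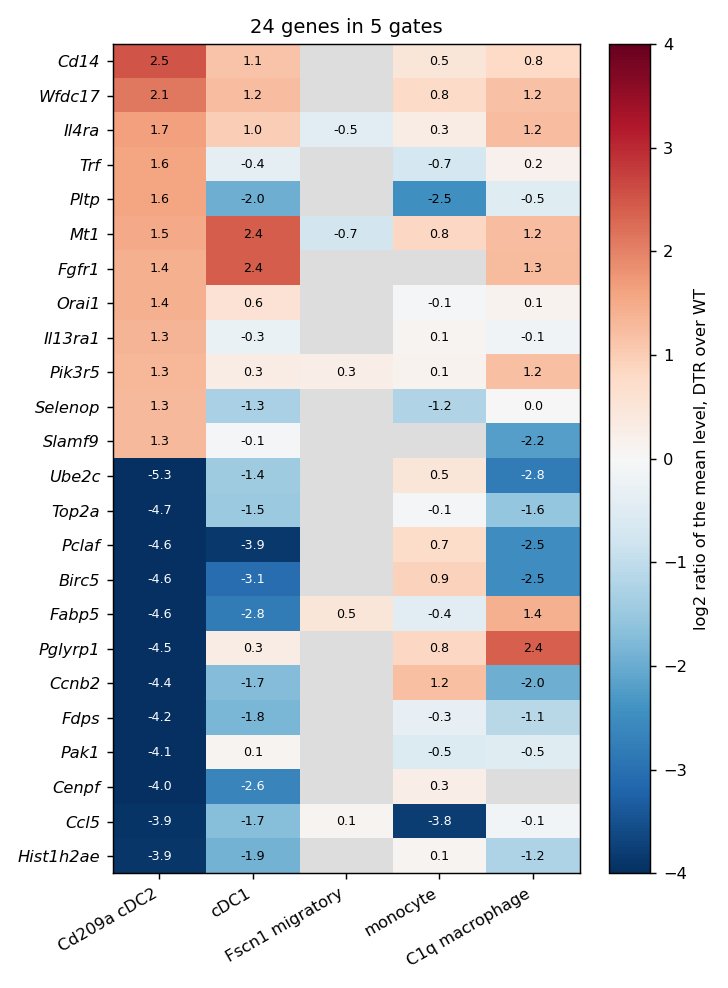
Log2 ratio of the mean level (Postn-DTR over WT) of the 12 highest and 12 lowest genes of the Cd209a cDC2, in 5 gates. Colour runs from -4 to 4 and saturates beyond, numbers give the value, and grey marks genes with fewer than 30 UMIs in the gate; Pltp is positive in cDC2 and negative in cDC1 and monocytes, and Ccnb2 is negative in cDC2 and positive in monocytes.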

How the data were processed

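Single-cell suspensions of omenta from WT and Postn-DTR mice were profiled on the 10x Chromium platform, 1 library each. The labels name a 5′ kit and Cell Ranger 6.0.0 with mm10, and the study's methods a 3′ kit and another version. The deposited matrix was read, from its values, as natural log values of 1 plus UMIs per 10000, since the sources used here do not describe the scale. They were back-transformed and whole UMIs recovered from the step in each cell (within 0.1 UMI for 99.96% and 99.91% of values, and 100% up to 20 UMIs). Of 19960 listed genes 19932 were found in GENCODE for GRCm38, which gave 1060 symbols and all gene coordinates. Cells with 200 to 7500 genes were kept. Scrublet in scanpy 1.11.5 called 98 and 73 doublets, which were removed only in an alternative. Levels are means over cells with 0.05 added for ratios, genes needed 30 UMIs, and called means at least 2-fold; with 1 library a group nothing was tested. Shares have exact Clopper-Pearson intervals, ratios of shares Katz intervals, and summed UMIs exact conditional binomial intervals; UMIs without replicate libraries limit all of these to counting error. Named genes were the genes of the rule, the 12 highest and 12 lowest with at least 100 UMIs in both libraries, in at least 10% of cells of 1 library and with at most 20% of UMIs of the higher library in 1 cell, the largest and most abundant members of each list, 12 leading genes, genes the study names, Ptprc and Postn. Other genes of the lists were named after their values were seen. The members and lists were chosen with earlier results of these data known. Calculations were checked on simulated data (Python 3.11.15, numpy 2.4.6, scipy 1.17.1). Values of some genes of the lists are not reported here.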

Additional observations from a re-analysis of the deposited data

Results flagged for a closer look

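A total of 7 genes differed in opposite directions, by at least 2-fold each, between Cd209a cDC2 and another gate, with at least 100 UMIs in both gates and counting intervals away from 0; the difference between gates was not tested. Slamf9 had a log2 ratio of 1.29 in cDC2 and -2.22 in C1q macrophages. Pltp had 1.57 in cDC2, -1.96 in cDC1 and -2.46 in monocytes. Fabp5 had -4.57 in cDC2 and 1.43 in C1q macrophages, and Pglyrp1 had -4.49 and 2.39. Ccnb2 had -4.36 in cDC2 and 1.20 in monocytes. Ccr7 had -4.44 in cDC2 and 2.36 in cDC1, where 2 of 17 Postn-DTR cells held all 65 UMIs. Of these 17 cDC1 cells 1 also passed the Fscn1 migratory gate, whereas the rule for cDC2 bars Fscn1. Dcn, a matrix gene of stromal cells, had -1.75 in cDC2 and 2.11 in monocytes. The monocyte gate shared 53 of 141 Postn-DTR and 5 of 102 WT cells with the neutrophil gate, so its 2 libraries hold unlike mixtures.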

How the results depend on the processing

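No paired analysis was possible because each group has 1 library. The ratio of cDC2 shares among Ptprc-positive cells was 0.193, and it moved to 0.358 when the gate was applied to cells thinned to 2000 UMIs, 0.400 without plasma cells and neutrophils in the denominator and 0.835 among dendritic cell gates. The counts of genes at least 2-fold higher and lower, 278 and 1369, became 740 and 2308 with no minimum beyond 1 UMI, 105 and 443 with at least 100 UMIs, 126 and 433 in cells thinned to 3000 UMIs, and 168 and 2275 without the cell with the most UMIs of each gene in each library, which also moved the median log2 ratio from -0.30 to -0.60. Without cycling cells 730 genes were lower. Thinned to 5000 UMIs in place of 3000, Itgax was found in 51.0% of WT cells and Wfdc17 in 100% of Postn-DTR cells. Of the named genes, under 3 or more markers the log2 ratio reversed for Cxcl2 (-0.12), Il6 (0.29), Chil3 (-2.59), Apoe (-0.77) and Irf4 (-1.22). It reversed for Clec4n in thinned cells (-0.49), and without the top cell for Areg (-0.17), Chil3 (-1.45) and Thbs1 (-0.24). In the stricter set it reversed for Areg (-0.39), Chil3 (-1.30), Thbs1 (-0.24), Apoe (-3.51), S100a9 (0.86) and Ngp (0.90), and in Ccr2 cells for Clec4n (-0.015) and Hspa1a (-0.13). The stricter set, the Ccr2 cells, the set without cycling cells and the gate without the Cd79a and Cd3e exclusion were added after seeing the data. Of 67 main values under an alternative, 52 stayed within the limits set and 15 moved. Of 1925 values of the named genes reported here 1739 stayed, 169 moved and 17 reversed. The 19 Postn-DTR cells hold 162028 UMIs in all, which limits every gene at 0 to the bounds given. These bounds count UMIs and leave out the variation between cells.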
